A study of Homo sapiens with 6 samples.

Results

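The genes described here encode the inducible transcription factors of the AP-1 and EGR families. They are FOS, FOSB, FOSL1 and FOSL2 of the FOS family, JUN, JUNB and JUND of the JUN family, and EGR1, EGR2 and EGR3 of the EGR family. These 10 genes were found by symbol among the 61806 genes of the deposited table. They were followed in 6 RNA-seq libraries of U87-MG, an established human glioblastoma cell line. Of these, 3 were negative control (NC) libraries with the genotype label wildtype, and 3 had the genotype label GRIK1 knockdown and were titled as GRIK1 siRNA 1, 2 and 3. GRIK1 encodes a kainate-type glutamate receptor subunit. The series text names an shRNA where the titles and the methods name siRNA, and the labels do not say whether the numbers 1, 2 and 3 stand for replicates or for siRNA sequences. The study's methods give separate siRNA sequences the same numbered names as these titles, and its results single out the first of them for later experiments, so both readings are possible. The numbers were used as replicate numbers. Time after transfection is not given in the sources used here. A single cell line was used, and nothing says that the libraries came from separate cultures, so p-values measure the spread between these libraries, which may be technical.

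AP-1 is a dimer of basic leucine zipper proteins. JUN proteins pair with each other or with FOS proteins, whereas FOS proteins need a JUN partner to bind DNA. EGR proteins bind GC-rich sites through zinc fingers. Most of these genes are immediate early genes, which serum, growth factors and stress switch on within minutes through MAP kinases, the ternary complex factors ELK1, ELK3 and ELK4, and the serum response factor SRF. JUND is known for steadier expression, and FOSL1 and FOSL2 for a later and longer induction. In tumor cells AP-1 is known for driving genes of proliferation, invasion and inflammation.

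The total counts lay between 11099909 and 14006968 per library. Reads on GRIK1 numbered 18, 9 and 8 in NC libraries 1, 2 and 3, against 15, 20 and 20 in the knockdown libraries. Its difference in log2(FPKM + 1) was 0.12 towards the latter (p = 0.4, two-sided exact permutation test, whose smallest p is 0.1 for groups of 3). The reads of the targeted gene were thus not lower in the knockdown libraries. At 0.13 to 0.38 FPKM they are too few to decide whether its level fell. The study reports an efficient knockdown of GRIK1 in U87-MG cells. The knockdown libraries are named by their label, GRIK1 siRNA, throughout. NC library 3 stood apart. Ribosomal protein genes took 9.37% of its counts and between 4.79% and 5.50% in the other 5 libraries, and the common dispersion of edgeR was 0.0391 with it and 0.00298 without it. The tests of the AP-1 and EGR genes and of the other genes named are therefore given with and without NC library 3. Of the 6 markers fixed for a mesenchymal glioma line, 5 were at a mean of 1 FPKM or more, led by VIM, and NES was below. The astrocyte markers were near 0, with GFAP at no more than 0.28 FPKM and AQP4 at 0, and their sum was 0.14 to 0.24 FPKM in NC and 0.32 to 0.40 FPKM in the others. Of the 4 neuron markers only SNAP25 (1.45 to 2.15 FPKM), and of the 3 epithelial markers only EPCAM (0.91 to 2.09 FPKM), had a mean of 1 FPKM or more, and both sums overlapped between the groups. No oligodendrocyte or endothelial marker was above 0.07 FPKM, and the oligodendrocyte sum was 0.06 to 0.12 FPKM in NC and 0.02 to 0.05 FPKM in the others. Among 4 immune markers, AIF1 and CD3E were at 0 and PTPRC had at most 0.03 FPKM. CD68 made up nearly all of the immune sum, which was 2.11 to 3.22 FPKM in NC and 3.47 to 4.07 FPKM in the others, and the part of these markers in the results was not tested.

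FOSL1 and JUN were the most abundant of the 10 genes in U87-MG cells. Levels are given in FPKM, reads scaled to exonic length and to library total, so that they can be compared between genes. In the NC libraries the mean was 154 ± 47.0 FPKM for FOSL1 and 65.9 ± 23.1 FPKM for JUN (SD, n = 3). They were followed by JUNB at 33.2 ± 6.02, EGR1 at 31.7 ± 11.7, JUND at 24.0 ± 4.40, FOSL2 at 10.6 ± 1.74, EGR2 at 7.15 ± 2.99, FOS at 7.05 ± 2.09 and FOSB at 2.18 ± 1.02 FPKM. EGR3 was barely detected, with 11, 9 and 3 reads in NC libraries 1, 2 and 3 and 5, 5 and 7 reads in those labelled GRIK1 siRNA. Neighbours whose NC ranges overlapped were JUNB and EGR1, EGR1 and JUND, FOSL2 and EGR2, and EGR2 and FOS. Compared within each NC library, FOSL2 was always above EGR2. The order of the other pairs turned in NC library 3 and is not settled by these libraries. In the libraries labelled GRIK1 siRNA the order was the same except that EGR1 and JUNB changed places, and these were the only neighbours there with overlapping ranges. By mean FPKM over the 6 libraries, FOSL1 and JUN lay at percentiles 98.8 and 97.4 of the 15870 genes tested, and FOSB lay at percentile 38.0.

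**Figure D1:**
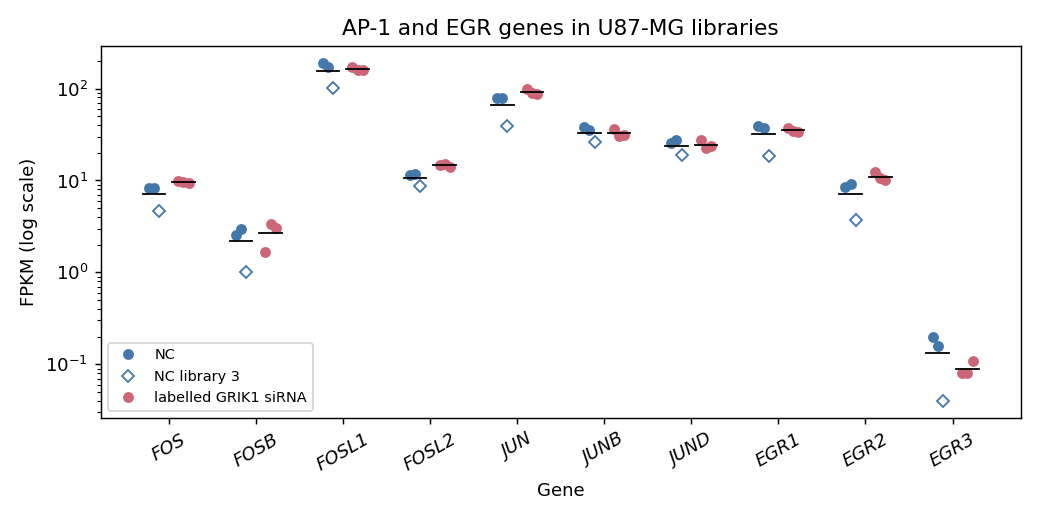
FPKM (log axis) of the 10 genes in each of the 6 libraries, with NC in blue, the libraries labelled GRIK1 siRNA in red and black lines for the mean of 3. FOSL1 spans 101 to 190 FPKM over the 6 libraries and EGR3 0.04 to 0.2 FPKM, and the open symbol of NC library 3 is the lowest for each gene.

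Each family was led by a single gene. FOSL1 gave between 85.1% and 89.5% of the summed FPKM of the FOS family in the 6 libraries, and FOS itself gave between 3.91% and 5.09%. JUN gave between 46.4% and 62.5% of the JUN family. EGR1 gave between 74.9% and 83.0% of the EGR family, and nearly all of the remainder was EGR2.

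None of the 9 genes that passed the filter on low values passed the test between the groups when all 6 libraries were used. The filter was a mean of at least 0.5 FPKM, and EGR3 was the gene below it. In the quasi-likelihood test of edgeR with Benjamini-Hochberg adjustment, 0 of 9 had an adjusted p under 0.05, where 3.09% of all tested genes did. DESeq2 also gave 0 of 9, against 1684 of the 15870 tested genes. The smallest of the 9 there was just over the threshold, at FOSL2 (DESeq2 adjusted p = 0.0529). FOSL2 alone, 1 of 9, had an unadjusted p under 0.05 in edgeR, against 25.1% of all tested genes. The median log2 fold change of the 9 genes, as the libraries labelled GRIK1 siRNA minus NC, was 0.24, against -0.02 over all tested genes. Of the 9, 7 were above 0, against 48.6% of all tested genes. In the fit without NC library 3, 5 of 9 passed that threshold, where 35.2% of all tested genes did. FOSL2, JUN and EGR2 rose, as 16.9% of all tested genes did, and FOSL1 and EGR1 fell, as 18.3% did. Their changes were small. The largest absolute log2 fold change among the 9 was then 0.31, the median of the 9 was -0.07 and that of all tested genes was 0.01. In that fit 4 of 9 were above 0, against 50.7% of all tested genes.

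**Figure D2:**
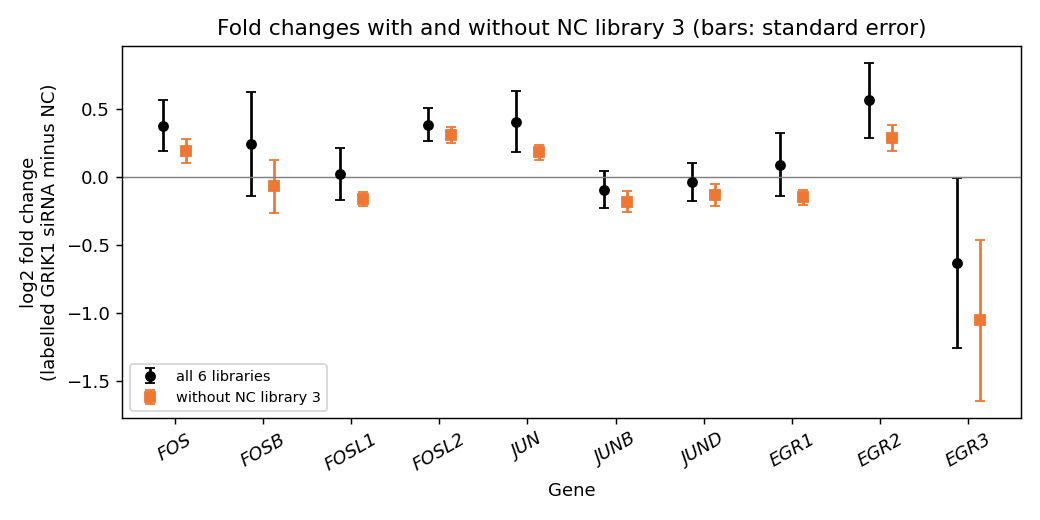
Log2 fold change (libraries labelled GRIK1 siRNA minus NC) of each gene with its standard error, from edgeR with all 6 libraries (black) and without NC library 3 (orange). EGR3 is from the fit without a filter. FOS, FOSL2, JUN and EGR2 lie above 0 in both fits, while FOSB, FOSL1 and EGR1 lie above 0 with all 6 libraries and below 0 without NC library 3.

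In the FOS family, FOSL2 (ENSG00000075426, chromosome 2 from 28392448 to 28417317, plus strand, GRCh38) encodes FRA-2. It had 11.4, 11.9 and 8.64 FPKM in NC libraries 1, 2 and 3 and 14.6, 15.2 and 14.2 FPKM in the libraries labelled GRIK1 siRNA. The groups did not overlap, and NC library 3 was the lowest. Its log2 fold change was 0.38 (standard error, SE, 0.12, edgeR adjusted p = 0.116). It was 0.31 without NC library 3 (SE 0.06, edgeR adjusted p = 0.000492), a rise of 23.8%. On the opposite strand, FOSL2-AS1 shares part of its span and had at most 6 counts in a library.

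FOS (ENSG00000170345, chromosome 14 from 75278826 to 75282230, plus strand), the founding member of the family, had 8.31, 8.21 and 4.64 FPKM in NC and 9.76, 9.57 and 9.46 FPKM in the others. The libraries labelled GRIK1 siRNA lay close together and above each NC library. The log2 fold change of 0.38 (SE 0.19) did not pass (edgeR adjusted p = 0.252). It was 0.19 without NC library 3 (SE 0.09, edgeR adjusted p = 0.111).

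FOSL1 (ENSG00000175592, chromosome 11 from 65892049 to 65900573, minus strand) encodes FRA-1, which is known for high levels in mesenchymal and invasive tumor cells. It had 190, 170 and 101 FPKM in NC and 171, 160 and 159 FPKM in the others. NC library 3 was far below the rest, and NC library 1 was the highest. The log2 fold change was 0.02 (SE 0.19, edgeR adjusted p = 0.953). Without NC library 3, FOSL1 fell by 0.16 on the log2 scale (SE 0.05, edgeR adjusted p = 0.0211). The remaining libraries then did not overlap in CPM scaled with TMM factors (normalized CPM), with 355 and 321 in NC against 315, 295 and 294, although in FPKM the highest library labelled GRIK1 siRNA was just above the lower NC library.

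FOSB (ENSG00000125740, chromosome 19 from 45467995 to 45475179, plus strand) varied most from library to library within the group labelled GRIK1 siRNA. It had 2.58, 2.95 and 1.02 FPKM in NC and 1.66, 3.34 and 3.01 FPKM in the others. Library 1 of those labelled GRIK1 siRNA was lower than NC libraries 1 and 2. The log2 fold change was 0.24 with a standard error of 0.38, and -0.07 with a standard error of 0.20 without NC library 3. FOSB lies within the span of ERCC1 on the opposite strand, and ERCC1 had between 935 and 1281 counts. The use of strand in counting is not given in the sources used here, so reads of the 2 genes cannot be told apart where they share bases.

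In the JUN family, JUN (ENSG00000177606, chromosome 1 from 58776845 to 58784048, minus strand) encodes c-Jun, the main partner of FOS proteins. It had 79.6, 78.9 and 39.3 FPKM in NC and 98.0, 88.7 and 87.3 FPKM in the others. NC libraries 1 and 2 were nearly equal, NC library 3 was far lower, and each library labelled GRIK1 siRNA was above all 3. The log2 fold change was 0.41 (SE 0.23, edgeR adjusted p = 0.297). Without NC library 3 it was 0.18 (SE 0.05, edgeR adjusted p = 0.0127), a rise of 13.2%.

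JUNB and JUND are weaker activators than JUN, and JUNB can oppose it at shared sites. JUNB (ENSG00000171223, chromosome 19 from 12791486 to 12793315, plus strand) had 38.0, 35.0 and 26.4 FPKM in NC and 36.2, 30.5 and 31.5 FPKM in the others. JUND (ENSG00000130522, chromosome 19 from 18279694 to 18281622, minus strand) had 25.7, 27.2 and 19.0 FPKM in NC and 27.3, 22.6 and 23.8 FPKM in the others. The groups overlapped for both genes. Their log2 fold changes were -0.09 (SE 0.14) and -0.04 (SE 0.14), and without NC library 3 they were -0.18 (edgeR adjusted p = 0.0714) and -0.13 (edgeR adjusted p = 0.236). JUNB lies within the span of HOOK2 on the opposite strand. HOOK2 had 181 counts in NC library 3 and between 350 and 433 in the other libraries.

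In the EGR family, EGR2 (ENSG00000122877, chromosome 10 from 62811996 to 62819167, minus strand), known for its role in myelinating cells, had 8.48, 9.24 and 3.72 FPKM in NC and 12.4, 10.6 and 10.01 FPKM in the others. Each library labelled GRIK1 siRNA was above each NC library, and NC library 3 was at less than any of them. The log2 fold change was 0.56 (SE 0.28, edgeR adjusted p = 0.248). With NC library 3 left out it was 0.28 (SE 0.10, edgeR adjusted p = 0.0305).

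EGR1 (ENSG00000120738, chromosome 5 from 138465479 to 138469303, plus strand) is the family member most widely used as a marker of growth factor signaling. It had 39.3, 37.6 and 18.3 FPKM in NC and 37.1, 34.8 and 33.8 FPKM in the others. NC libraries 1 and 2 were above the libraries labelled GRIK1 siRNA, and NC library 3 was below them. The log2 fold change was 0.09 (SE 0.23, edgeR adjusted p = 0.832). In the fit without NC library 3, EGR1 fell by 0.15 on the log2 scale (SE 0.06, edgeR adjusted p = 0.0428). EGR3 (ENSG00000179388) was tested only without the filter, where its log2 fold change was -0.63 with a standard error of 0.62. With NC library 3 left out that value was -1.06 (SE 0.59, edgeR adjusted p = 0.270). In normalized CPM its groups overlapped over the 6 libraries, and without NC library 3 those labelled GRIK1 siRNA were lower without overlap. EGR3 passed in neither fit, and it had no more than 11 reads in a library.

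Across the 9 tested genes, 4 (FOS, FOSL2, JUN and EGR2) had groups that did not overlap in normalized CPM, each higher in the libraries labelled GRIK1 siRNA, where 19.4% of all tested genes were higher without overlap. None was lower without overlap, against 19.0% of all tested genes. Without NC library 3, the same 4 were higher without overlap, against 28.0%, and FOSL1 and EGR1 were lower without overlap, against 28.5%.

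NC library 3 was below NC libraries 1 and 2 for 9 of 9 tested genes in normalized CPM, where 45.3% of all tested genes were. It was below all 5 other libraries for 8 of 9, with JUNB as the exception, where 35.8% of all tested genes were. Set against the mean of NC libraries 1 and 2, its normalized CPM was lower by 15.7% for FOSL2, 18.0% for JUNB, 18.8% for JUND, 36.4% for FOS, 36.6% for FOSL1, 43.8% for JUN, 46.0% for EGR1, 52.5% for EGR2 and 58.3% for FOSB. The lowest deficits were in FOSL2, JUNB and JUND. The median over the 9 genes was -0.66 on the log2 scale of normalized CPM + 0.1, against -0.04 over all tested genes. These are single libraries of a group, so they have no test.

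**Figure D3:**
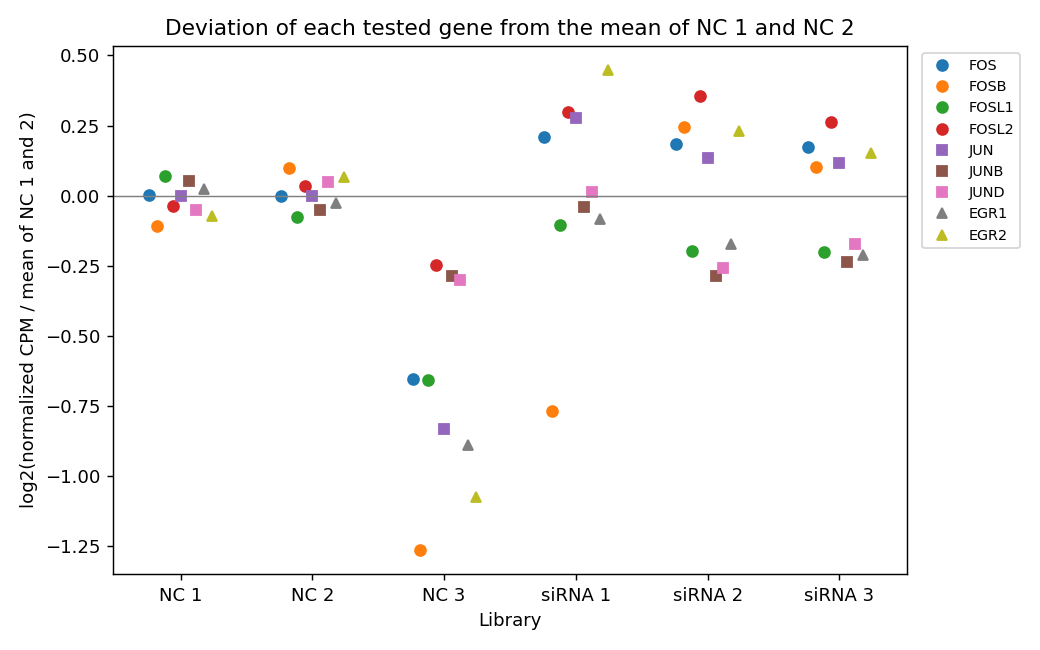
Log2 ratio of normalized CPM in each library to the mean of NC libraries 1 and 2, for the 9 tested genes (circles FOS family, squares JUN family, triangles EGR family). In NC library 3 all 9 lie below 0, down to FOSB at 58.3% below that mean, and in the 3 libraries labelled GRIK1 siRNA FOS, FOSL2, JUN and EGR2 lie above 0.

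Ratios of FPKM within a library do not depend on how libraries are scaled. There were 10 pairs of tested genes within a family. The groups did not overlap in 4 of them. They overlapped in FOSL1 to FOSL2, FOSL2 to FOS, JUNB to JUND and each pair with FOSB. The JUN to JUNB ratio was 2.09, 2.25 and 1.49 in NC, against 2.71, 2.91 and 2.77 in those labelled GRIK1 siRNA. The JUN to JUND ratio was 3.10, 2.90 and 2.07 against 3.60, 3.93 and 3.67. JUN was thus higher relative to its relatives in each library labelled GRIK1 siRNA, also without NC library 3. The FOSL1 to FOS ratio was 22.9, 20.8 and 21.7 against 17.6, 16.8 and 16.8, and the EGR1 to EGR2 ratio was 4.64, 4.07 and 4.92 against 3.003, 3.29 and 3.37. In these 4 ratios NC library 3 was on the same side as the other NC libraries. Each had p = 0.1 in the two-sided exact permutation test on the log2 ratio, the smallest that 3 against 3 can give, and an adjusted p of 0.25 over the 10 pairs (exact permutation test). The FOSL1 to FOSL2 ratio was 16.7, 14.4 and 11.67 in NC against 11.74, 10.6 and 11.3 in the others, so that only NC library 3 overlapped the libraries labelled GRIK1 siRNA.

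Promoter sequences of RefSeq, from 250 bases before to 50 after the start site on GRCh38.p14, were matched by symbol for 8 of the 10 genes, in 10 windows, 3 of them of EGR2. FOSL1 and EGR3 had no entry. The windows were searched on both strands for the CArG box, which SRF binds, for the AP-1 site TGANTCA, for the wider TGANNTCA, which takes in the CRE and the variant site of the JUN promoter, and for the EGR site GCGNGGGCG. None of these 4 motifs overlapped another in the windows. The matches below show the letters that SRF and AP-1 or related proteins are known to bind. Capitals mark the motif.

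EGR1: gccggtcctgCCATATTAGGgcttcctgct
EGR2: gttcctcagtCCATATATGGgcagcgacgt
JUN: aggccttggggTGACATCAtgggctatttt
JUND: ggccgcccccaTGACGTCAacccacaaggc
FOSL2: tgccattgtagTGACTCAtctcgggcaga

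The EGR1 match lies at chr5:138465364-138465393, with the box from -105 to -96 relative to the start site, and a second CArG box lies from -83 to -74. The EGR2 match lies at chr10:62816418-62816447, from -71 to -62 of the most downstream of its 3 start sites. A CArG box was in the windows of 2 of 8 genes, or 2 of their 10 windows, and in 1.29% of all 35116 windows. The JUN match lies at chr1:58784096-58784125, with the motif from -67 to -60, and the JUND match at chr19:18281804-18281833, from -200 to -193. A second TGANNTCA match of JUND lies from -54 to -47. TGANNTCA was in windows of 2 of 8 genes, or 2 of 10 windows, and in 11.5% of all windows. The FOSL2 match at chr2:28392851-28392879 lies just after the start site, with the motif from base 5 to base 11. TGANTCA was in 1 of 10 windows and in 7.71% of all windows. GCGNGGGCG was in windows of EGR1 and EGR2, or 2 of 10 windows, and in 9.43% of all windows. A match is a description of letters and not a bound site. Sequence outside the windows was not searched, so a gene without a match, FOS included, may have the motif elsewhere.

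The genes that regulate this system showed no called change in edgeR with all 6 libraries. The upstream regulators listed were SRF, its partners, CREB1, genes of the MAP kinase pathways, and the ubiquitin ligase genes COP1 and FBXW7. Of 23 tested (of 25 listed), 0 passed in edgeR, where 3.09% of all tested genes did. DESeq2 called 3 of 23, against 1684 of the 15870 tested genes. An unadjusted p under 0.05 in edgeR was found for 4 of 23, against 25.1% of all tested genes. The median log2 fold change was -0.09, with 8 of 23 above 0 (against 48.6% of all tested genes), and -0.03 without NC library 3. The lowest was ELK3, a ternary complex factor, with 19.4, 21.0 and 22.1 FPKM in NC and 15.6, 15.3 and 15.6 FPKM in the others, a log2 fold change of -0.52 (SE 0.13, edgeR adjusted p = 0.0749). The highest was FBXW7, a ubiquitin ligase subunit that targets JUN for degradation, with 0.56 (SE 0.15, edgeR adjusted p = 0.0862). In the fit without NC library 3, 7 of 23 passed (30.4%, against 35.2% of all tested genes), 3 higher, FBXW7 among them (0.43, SE 0.08, edgeR adjusted p = 0.000257), and 4 lower, ELK3 among them (-0.40, SE 0.06, edgeR adjusted p = 5.04e-05). SRF, named here after its values were seen, had a log2 fold change of -0.39 (SE 0.11, edgeR adjusted p = 0.0979), with no overlap between the groups. It passed without NC library 3, with -0.36 (SE 0.08, edgeR adjusted p = 0.00145).

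Among the other basic leucine zipper genes of the AP-1, ATF and MAF groups, 0 of 9 tested (of 11 listed) passed in edgeR, against 3.09% of all tested genes. DESeq2 called 1 of 9, against 1684 of the 15870 tested genes. In edgeR 4 of 9 had an unadjusted p under 0.05, against 25.1%. Their median log2 fold change was -0.29, with 3 of 9 above 0 (against 48.6% of all tested genes), and -0.24 without NC library 3. The lowest was JDP2, a repressor that dimerizes with JUN, at 2.23, 2.41 and 2.44 FPKM in NC and 1.75, 1.39 and 1.80 FPKM in the others (log2 fold change -0.61, SE 0.17, edgeR adjusted p = 0.0907). The highest was ATF7, with 0.38 (SE 0.21), and 0.17 (SE 0.07, edgeR adjusted p = 0.0895) without NC library 3. In that fit 6 of 9 passed (66.7%, against 35.2% of all tested genes), 2 higher and 4 lower, JDP2 among the latter with -0.52 (SE 0.14, edgeR adjusted p = 0.00683). Of the EGR co-repressors, NAB1 had 27.0, 28.0 and 31.6 FPKM in NC and 22.3, 23.1 and 23.0 FPKM in the others, with a log2 fold change of -0.44 (SE 0.14, edgeR adjusted p = 0.121), and it fell by 0.30 without NC library 3 (edgeR adjusted p = 0.000246). NAB2, itself an EGR1 target in many cells, had 0.14 (SE 0.12), or 0.08 (SE 0.07) without that library, and EGR4 was below the filter.

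Of 23 tested genes among 25 other immediate early genes, 0 passed in edgeR, against 3.09% of all tested genes. DESeq2 called 3 of 23, against 1684 of the 15870 tested genes. In edgeR 8 of 23 had an unadjusted p under 0.05, against 25.1%. The median log2 fold change was -0.03, with 10 of 23 above 0 (against 48.6% of all tested genes), and -0.12 without NC library 3. The extremes were CCN2, a matricellular gene known as a target of YAP and SRF, with -0.997 (SE 0.26, edgeR adjusted p = 0.0782), and BTG2, an antiproliferative gene, with 0.87 (SE 0.23, edgeR adjusted p = 0.0787). CCN2 had 19.96, 20.3 and 9.25 FPKM in NC and 9.70, 7.90 and 8.29 FPKM in the others, so that NC library 3 was near the libraries labelled GRIK1 siRNA. With NC library 3 left out, 11 of 23 passed (47.8%, against 35.2% of all tested genes), 3 higher and 8 lower. CCN2 then fell by 1.25 on the log2 scale (SE 0.10, edgeR adjusted p = 3.41e-08) and BTG2 rose by 0.77 (SE 0.23, edgeR adjusted p = 0.0131). The direction thus differed among the other immediate early genes, as it also did among the AP-1 and EGR genes.

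Among 17 tested genes (of 20 listed) known as AP-1 targets, 1, HMOX1, passed in edgeR, against 3.09% of all tested genes. DESeq2 called 4 of 17, against 1684 of the 15870 tested genes. HMOX1, which encodes heme oxygenase and is also a target of NRF2, had 13.3, 14.2 and 8.67 FPKM in NC and 41.1, 38.6 and 36.0 FPKM in the others. It rose by a log2 fold change of 1.61 (SE 0.16, edgeR adjusted p = 0.0191), and by 1.46 without NC library 3 (SE 0.08, edgeR adjusted p = 3.21e-10). When any 1 of the other 5 libraries was left out, 0 of 17 targets passed, HMOX1 included. In those fits 0 of all 15870 tested genes passed, so the loss is not particular to HMOX1. The median log2 fold change of the list was -0.02, with 7 of 17 above 0 (against 48.6% of all tested genes), and -0.13 without NC library 3. In edgeR 5 of 17 had an unadjusted p under 0.05, against 25.1% of all tested genes. MMP1 and CXCL8, classical AP-1 targets that encode a collagenase and interleukin-8, are named after their values were seen. MMP1 had 19.0, 20.9 and 47.2 FPKM in NC and 9.05, 9.20 and 8.93 FPKM in the others. Its log2 fold change was -1.81 (SE 0.39, edgeR adjusted p = 0.0536), and -1.16 without NC library 3 (SE 0.08, edgeR adjusted p = 1.24e-08). CXCL8 had 535, 560 and 1029 FPKM in NC and 286, 296 and 296 FPKM in the others. Its log2 fold change was -1.39 (SE 0.31, edgeR adjusted p = 0.0573), and -0.93 without NC library 3 (SE 0.05, edgeR adjusted p = 2.19e-10). For MMP1 and CXCL8, NC library 3 was the highest library, whereas for 9 of the 10 AP-1 and EGR genes it was the lowest in normalized CPM. Of the 17 targets, 13 passed without NC library 3, 5 higher and 8 lower (76.5%, against 35.2% of all tested genes). Over the 6 libraries, 5 of 17 were higher without overlap in normalized CPM (against 19.4% of all tested genes) and 3 lower (against 19.0%). FN1 and IL11, also named after their values were seen, were higher. Their log2 fold changes were 0.91 (SE 0.52, edgeR adjusted p = 0.302) and 0.57 (SE 0.18, edgeR adjusted p = 0.119). Without NC library 3 they were 0.47 (SE 0.05, edgeR adjusted p = 7.7e-07) and 0.69 (SE 0.18, edgeR adjusted p = 0.00537).

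**Figure D4:**
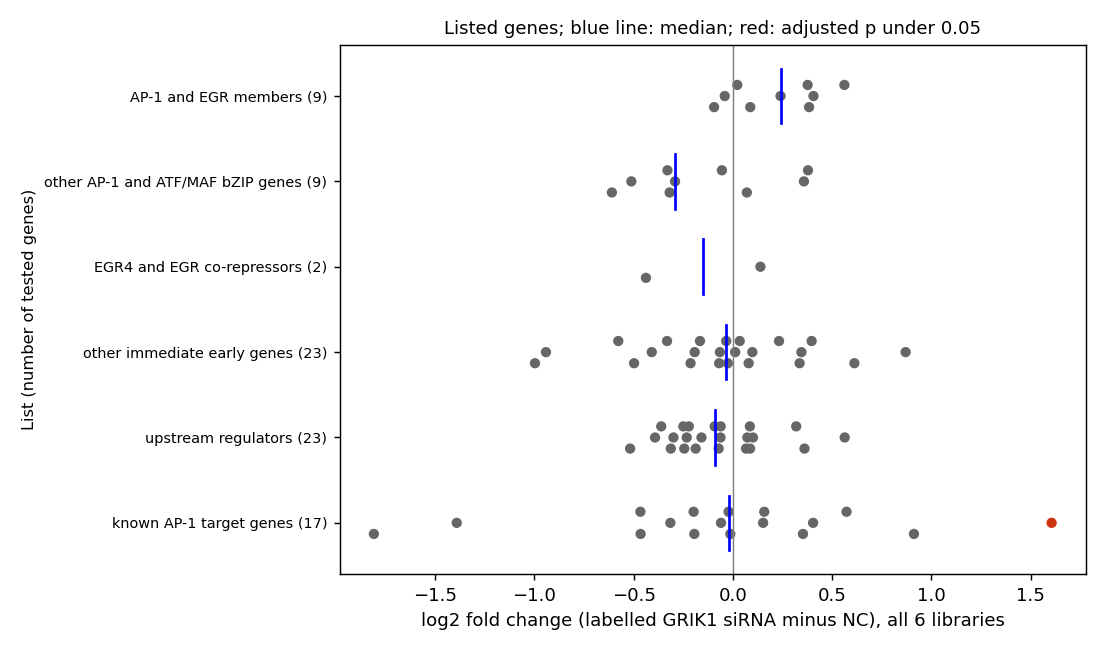
Log2 fold change (libraries labelled GRIK1 siRNA minus NC, all 6 libraries) of each tested gene in the lists, with the median as a blue line and genes with an adjusted p under 0.05 in red. HMOX1 at 1.61 is the only red point, and the median of the AP-1 and EGR genes is 0.24 against -0.29 for the other basic leucine zipper genes.

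The genes with the profile most like that of FOS over the 6 libraries, by Pearson's r of log2 CPM, were AKAP8, BAZ2A and TNFRSF25 (r of at least 0.999). For JUN they were TMEM214, PRKRIP1 and PLAUR, the urokinase receptor gene in the list of AP-1 targets. For EGR1 they were LGALS3BP, COL6A1 and STK36. These values describe 6 points that share NC library 3, and r was over 0.95 with 8.23% of all other tested genes for FOS, 7.56% for JUN and 4.75% for EGR1. Without NC library 3, r of the named genes with FOS, JUN or EGR1 was from 0.992 (STK36) to 0.998 (LGALS3BP). They were picked on the same libraries, so this is not a separate test. Among the 9 tested genes themselves, the median r over 36 pairs was 0.72 over the 6 libraries, and it was -0.29 when NC library 3 was left out.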

How the data were processed

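RNA was sequenced from U87-MG cells in 6 libraries, 3 NC and 3 labelled GRIK1 siRNA, and grouped by title alone. The authors deposited raw read counts per gene and FPKM values, which equal the count divided by the exonic size and the total count of the library for 100% of values. The submitters' processing notes name cutadapt 1.9.1, HISAT2, HTSeq and GRCh38; the roles of these tools and the strand setting are not given in the sources used here. The genes and lists were chosen with earlier results of these data known.

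Counts of genes with a mean FPKM of at least 0.5 (15870) were scaled by TMM and tested in edgeR 4.0.16 (R 4.3.3) by quasi-likelihood, without a block, with Benjamini-Hochberg adjustment over all of them and a threshold of 0.05. Standard errors are the fitted log2 coefficient divided by the root of the F statistic. DESeq2 1.42.0 and limma 3.58.1 were alternatives. GRIK1 and FPKM ratios were compared with exact permutation tests in scipy 1.17.1. The method was tested on simulated counts. With 3 libraries a group, an exact permutation p cannot be below 0.1. A count of 0 allows up to 3 counts (95% limit), which covers counting error only. The named genes were GRIK1, the 10 members, at most 5 called genes or else the extremes of each list, the 3 closest profiles of FOS, JUN and EGR1, and overlapping genes.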

Additional observations from a re-analysis of the deposited data

How the results depend on the processing

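The call of 0 of 9 AP-1 and EGR genes was the same with RLE or upper-quartile factors, no filter or a filter of 1 FPKM. It was the same in DESeq2 and limma-trend, and it was 5 of 9 without NC library 3. With the replicate number as a block, and without any 1 of the other 5 libraries, it was again 0 of 9. In those fits 0 of all tested genes passed, so their 0 of 9 says nothing about these genes in particular. The signs of FOSB, FOSL1, EGR1 and the median of the 9 genes turned without NC library 3, that of FOSL1 also without library 1 of those labelled GRIK1 siRNA (-0.0085), and that of JUND without library 2 of either group (0.035 for NC, 0.017 for the other) and in limma-trend on log2(FPKM + 1) and on log2(FPKM + 0.1) (0.046 and 0.048). With 1 library left out, FOSB ranged from -0.072 to 0.50, FOSL1 from -0.16 to 0.17, EGR1 from -0.15 to 0.24, JUND from -0.13 to 0.035 and the median from -0.072 to 0.44. Over all tested genes, 490 calls became 1403 without the filter, 1684 in DESeq2, 280 in limma-trend on log2(FPKM + 0.1) and 0 with the replicate block. With a library left out, they became 5591 without NC library 3 and 0 without any 1 of the other 5. The numbers shared by the groups pair nothing in the labels, and the correlations of deviations of same-numbered libraries lay between -0.07 and 0.04, so the block result is given only here. Among the lists, the other basic leucine zipper genes had 1 call in DESeq2 and from 0 to 6 with a library left out, the EGR co-repressors from 0 to 1, the other immediate early genes 1 without the filter, 3 in DESeq2 and from 0 to 11, the upstream regulators 3 in DESeq2 and from 0 to 7, and the AP-1 targets 3 without the filter, 4 in DESeq2, 0 with the block and from 0 to 13. HMOX1 thus lost its call with the block and without any 1 of the 5 libraries other than NC library 3, as all other called genes did. The difference of GRIK1 lay between 0.06 and 0.21 with a library left out. The causes were not tested. The fit of EGR3 without NC library 3 was chosen after seeing the data.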
